A study of Homo sapiens with 20 samples.

Results

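The comparison described here set MII cells transfected with siRNA against APC (siAPC) beside MII cells transfected with siRNA against beta-catenin (sibcat), both with TAZ left intact, over every gene measured. Its members were the 8 arrays whose titles name siAPC alone or sibcat alone, 4 of each, of 20 arrays in all. MII is another name for MCF10-T1k, a human mammary epithelial line transformed with RAS, so every group carried the RAS oncogene and all results come from 1 line. The other groups were siAPC/siTAZ, sibcat/siTAZ and the control siGFP, each with 4 arrays, and all cells were grown with serum, insulin, EGF, hydrocortisone and cholera toxin. Values are log2 signals of Affymetrix arrays, 1 probe set per gene, for 19752 genes, and each difference is siAPC minus sibcat unless another is named.

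APC holds together the destruction complex, which tags the beta-catenin protein (gene CTNNB1) for breakdown, so cells that lose APC accumulate it, whereas siRNA against beta-catenin removes its mRNA. Stabilised beta-catenin enters the nucleus and acts with TCF and LEF factors on target genes, many of which encode inhibitors that feed back on the Wnt pathway. Beta-catenin also links cadherins to the cytoskeleton at adherens junctions, and TAZ (gene WWTR1), a coactivator of TEAD factors, can be degraded together with it.

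The siRNA targets matched the labels of both groups. APC had log2 signals of 7.28, 7.42, 7.33 and 7.35 in siAPC cells, against 8.18, 8.30, 8.11 and 8.16 in sibcat cells. Every siAPC array lay below every sibcat array, and the difference was -0.84 ± 0.05 (SE, n = 4 arrays per group, limma adjusted p = 1.6e-10). CTNNB1 had 11.99, 11.93, 12.03 and 11.98 in siAPC cells, against 10.66, 10.66, 10.56 and 10.53 in sibcat cells, with 11.94 as the siGFP mean. The groups were again separate, by 1.38 ± 0.05 (adjusted p = 3.8e-14), and the siAPC mean lay 0.04 from the siGFP mean (adjusted p = 0.527). The dimmer CTNNB1 probe sets disagreed with this distance from siGFP. The set averaging 8.7 in siAPC cells stood at -0.51 there and -2.12 in sibcat cells, a difference of 1.61 between the groups. The set averaging 7.32 in siAPC cells stood at 0.32 and 0.15, so it was not lowered in sibcat cells, and the groups differed by 0.17. A further APC probe set differed by -0.10 and was not called. WWTR1 averaged 10.64 ± 0.04 in siAPC cells and 10.62 ± 0.06 in sibcat cells (SD, n = 4 each), a difference of 0.02 ± 0.05 that did not pass the test (adjusted p = 0.839). Both WWTR1 means lay under the siGFP mean of 11.06, and a dimmer WWTR1 probe set was lower in siAPC by 0.33 (-0.33, adjusted p = 0.0445).

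Across the 8 arrays the medians lay between 5.07 and 5.09, and 2 arrays of 1 group correlated at 0.9965 to 0.9976, against 0.9907 to 0.9918 for a siAPC and a sibcat array. The ACTB control probe sets gave a 3′ minus 5′ log2 difference of 1.57 ± 0.03 in siAPC cells and 1.81 ± 0.05 in sibcat cells (SD, n = 4 each; exact permutation test, two-sided p = 0.0286, the smallest this design allows; 0.0572 adjusted over 2 genes), while GAPDH gave 0.12 in both groups. The part of this RNA measure in the results was not tested. Replicates are described as biological, but whether each was its own culture is not stated, and the p-values therefore cover the spread between these arrays and no more, which may be technical. All 7 measured markers of the mammary line, among them KRT5, KRT14 and CDH1, lay above the array median in both groups, with summed signals of 13119 to 13457 in siAPC cells and 11129 to 12407 in sibcat cells. Of 10 endothelial markers 3 lay above the array median in each group, and of 8 leukocyte markers 1 did in siAPC cells and 2 in sibcat cells. Of 10 fibroblast markers 5 did in each group, led by the matrix proteoglycan DCN at 11.32 in siAPC cells and 11.85 in sibcat cells.

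In total 6683 of 19752 genes passed the test, an adjusted p under 0.05 in limma with Benjamini-Hochberg adjustment over all genes, which is 33.8% of them. In siAPC cells 3219 genes (16.3%) were higher and 3464 (17.5%) were lower than in sibcat cells. These 2 shares are the background for the counts of each gene list below. Most of these differences were small, with a median size of 0.31 and a smallest called size of 0.08. At least a 2-fold difference was seen for 331 genes (1.68%), of which 204 were higher (1.03%) and 127 lower (0.643%) in siAPC cells. The far tail leaned upward, since 43 genes were higher and 13 lower by at least 2 on the log2 scale. The median difference over all genes was 0.0, with the 5th percentile at -0.45 and the 95th at 0.43.

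The largest difference belonged to AXIN2, a scaffold of the destruction complex and a feedback target of beta-catenin. AXIN2 had log2 signals of 10.08, 10.09, 10.08 and 10.14 in siAPC cells, against 4.11, 4.36, 4.38 and 4.30 in sibcat cells. That is a difference of 5.81 ± 0.08, or 56.1-fold, with an adjusted p of 4.6e-20. The sibcat and siGFP means lay under the array median, where background compresses differences, so the order of folds among such genes is uncertain. GJA1, a connexin of gap junctions, had 9.81, 9.79, 9.72 and 9.85 in siAPC cells, against 5.78, 5.71, 5.63 and 5.58 in sibcat cells (4.12 ± 0.06, 17.4-fold, adjusted p = 1.5e-19). All siAPC arrays stood above all sibcat arrays for both genes, as the choice of the largest rises required. Over all genes the groups did not overlap, in either direction, for 6452 of 19752 (32.7%). IGFL2, which encodes a secreted protein of the IGF-like family, had 10.47, 10.35, 10.15 and 10.41 in siAPC cells, against 6.22, 5.99, 6.20 and 5.68 in sibcat cells (4.32 ± 0.11). TDO2, an enzyme of tryptophan breakdown, had 7.37, 7.28, 7.31 and 7.22 in siAPC cells, against 3.45, 3.42, 3.54 and 3.47 in sibcat cells (3.83 ± 0.07).

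HAS2, a hyaluronan synthase, had 9.52, 9.43, 9.66 and 9.50 in siAPC cells, against 6.13, 6.28, 6.10 and 6.20 in sibcat cells (3.35 ± 0.10). Its siGFP mean of 5.08 lay below both group means. CXCL8, a chemokine that draws neutrophils, had 11.20, 11.22, 11.34 and 11.39 in siAPC cells, against 7.99, 7.97, 7.95 and 7.86 in sibcat cells (3.35 ± 0.05). CDH11, a cadherin typical of mesenchymal cells, was 3.33 ± 0.09 higher and CLEC7A, a pattern receptor for fungal glucans, 2.88 ± 0.08 higher in siAPC cells. The remaining genes of the 15 largest rises were DKK2, TNFRSF19, LEF1 and CCN4, described below, SPRR2B (2.91 ± 0.14), the noncoding LINC00622 (3.28 ± 0.16) and the dynamin DNM3 (2.80 ± 0.14). SPRR2B belongs to a family of near-identical genes whose members its probe set may not tell apart.

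The largest fall was that of IFI6, an interferon-stimulated gene, with 7.12, 7.39, 7.21 and 7.08 in siAPC cells, against 9.94, 9.90, 9.96 and 10.21 in sibcat cells. Its difference was -2.80 ± 0.09 (6.98-fold, adjusted p = 9.9e-15). IL6, an inflammatory cytokine, had 5.42, 5.21, 5.24 and 5.20 in siAPC cells, against 8.09, 8.06, 8.08 and 7.97 in sibcat cells (-2.78 ± 0.06). In both genes the sibcat arrays were all above the siAPC arrays, as the choice of these genes required. ASB9, a substrate adaptor of a ubiquitin ligase, had 5.08, 4.96, 4.71 and 4.96 in siAPC cells, against 7.56, 7.68, 7.59 and 7.72 in sibcat cells (-2.71 ± 0.06). IQGAP2, a scaffold related to the RAS GTPase-activating proteins, had 5.94, 6.04, 6.14 and 6.14 in siAPC cells, against 8.75, 8.80, 8.78 and 8.68 in sibcat cells (-2.69 ± 0.07). ARL14, a small GTPase, had 4.10, 3.88, 4.28 and 4.15 in siAPC cells, against 6.75, 6.93, 6.47 and 6.65 in sibcat cells (-2.60 ± 0.09). The siAPC values of ASB9 and ARL14 were at or under the array median.

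Further down the 15 largest falls were CD14, a coreceptor for bacterial lipopolysaccharide (-2.47 ± 0.06), PTGFR, the receptor for prostaglandin F (-2.34 ± 0.06), the small GTPase RAB31 (-2.19 ± 0.05) and the peroxisomal oxidase ACOX2 (-2.06 ± 0.06). FABP4, a fatty acid carrier, had 5.04, 4.58, 3.81 and 4.75 in siAPC cells, against 6.76, 6.74, 6.62 and 6.62 in sibcat cells. Its siAPC arrays were the most scattered of the 30 genes (-2.14 ± 0.16, adjusted p = 2e-09). Among the 30 genes, TDO2, DKK2, IQGAP2 and FABP4 each had 1 further probe set, which was not called. The other 5 of the 15, IFIT1, IFI27, ISG15, OASL and IFITM1, are interferon-stimulated genes.

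**Figure D1:**
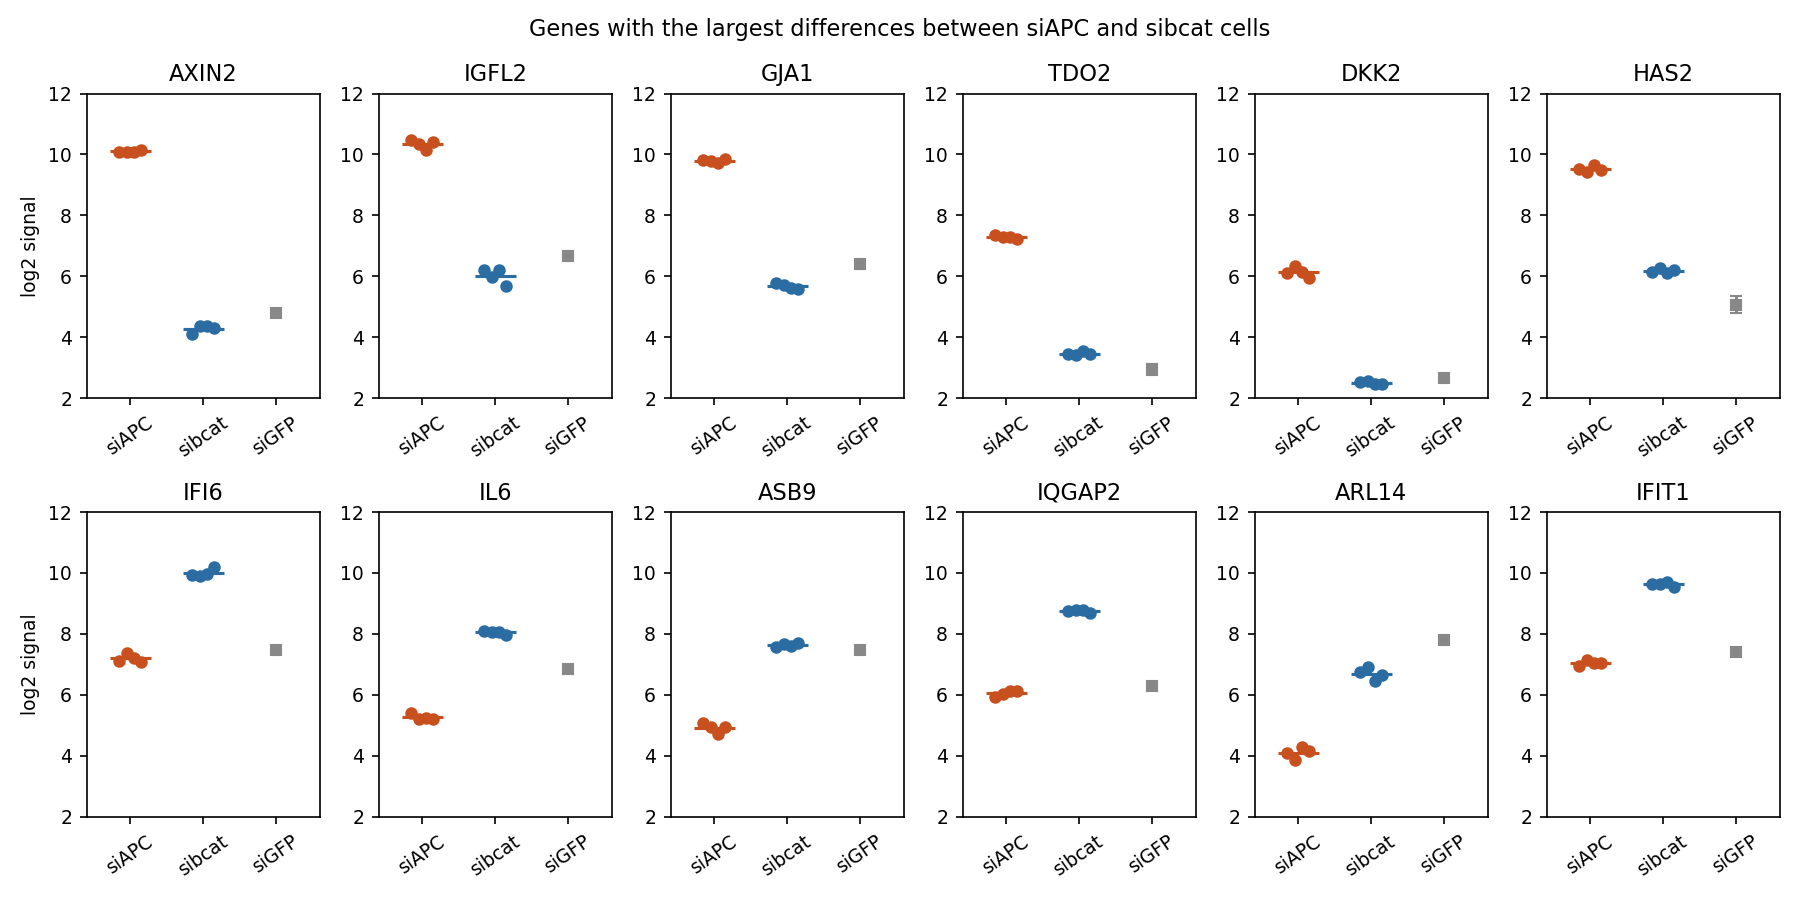
Log2 signal (vertical axis) of the 6 largest rises (upper row) and 6 largest falls (lower row). Points are the 4 siAPC and 4 sibcat arrays with a line at each mean, and the grey square is the siGFP mean ± SD of 4 arrays. The genes were taken among those whose groups do not overlap, so the gaps between points follow from that choice. AXIN2 lies at 10.08 to 10.14 against 4.11 to 4.38, and IFIT1 at 6.95 to 7.16 against 9.54 to 9.72.

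Setting each depletion beside siGFP placed these genes. AXIN2 was higher than siGFP in siAPC cells by 5.30 and lower in sibcat cells by 0.51 (-0.51), so almost the whole measured distance lay on the siAPC side. Its siGFP mean of 4.79 and sibcat mean of 4.29 were under the array median, where background compresses differences. The fall in sibcat cells may therefore be understated. Most of the measured distance was on the siAPC side also for CDH11 at 3.10 and -0.23 and LEF1 at 2.96 and -0.17, while GJA1 stood at 3.39 and -0.73. In sibcat cells AXIN2, LEF1 and GJA1 were called below siGFP (limma adjusted p = 2.3e-05, 0.00738 and 8.2e-09), and CDH11 was not (0.0525). Of the 15 largest rises 10 were called lower in sibcat cells than in siGFP cells (background 15.7%) and 2 higher (background 21.4%). For IFI6 the distance lay on the sibcat side, at -0.26 in siAPC cells and 2.54 in sibcat cells, and likewise for IQGAP2 at -0.21 and 2.48. ASB9 at -2.56 and 0.15, CD14 at -2.70 and -0.23, PTGFR at -2.32 and 0.02 and ACOX2 at -2.05 and 0.01 were lower in siAPC cells with sibcat cells near siGFP. HAS2 was above siGFP in both, by 4.45 in siAPC cells and 1.10 in sibcat cells, and BMP4 by 4.64 and 2.39. ARL14 was below siGFP in both, at -3.70 and -1.10. Both of these differences use the same 4 siGFP arrays, so their errors are shared.

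A smaller group moved apart from siGFP in opposite directions, and the 6 genes with the widest split in each direction were taken by rule. CCN4, a matricellular protein known as a beta-catenin target, was 1.44 above siGFP in siAPC cells and 1.61 below in sibcat cells (-1.61). TNFRSF19, a receptor of the TNF family, stood at 2.08 and -1.14, and PDP1, a phosphatase that activates pyruvate dehydrogenase, at 1.01 and -0.96. PDP1 signals were 11.16, 11.20, 11.24 and 11.21 in siAPC cells, against 9.27, 9.32, 9.11 and 9.22 in sibcat cells, with 10.19 as the siGFP mean. The others were LINC00622 at 2.08 and -1.2, SPRR2B at 1.94 and -0.96 and CXCL8 at 2.48 and -0.86. In the opposite direction stood IL6 at -1.57 in siAPC cells and 1.21 in sibcat cells, OASL at -0.83 and 1.16, and IFITM1 at -1.24 and 0.75. TGFBR1, the type I receptor for TGF-beta, stood at -0.91 and 0.82, and the antisense RNAs GAS6-AS1 and PSMB8-AS1 at -0.70 and 0.86 and at -0.66 and 0.84. Array probes of antisense RNAs were taken here by the deposited annotation alone.

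**Figure D2:**
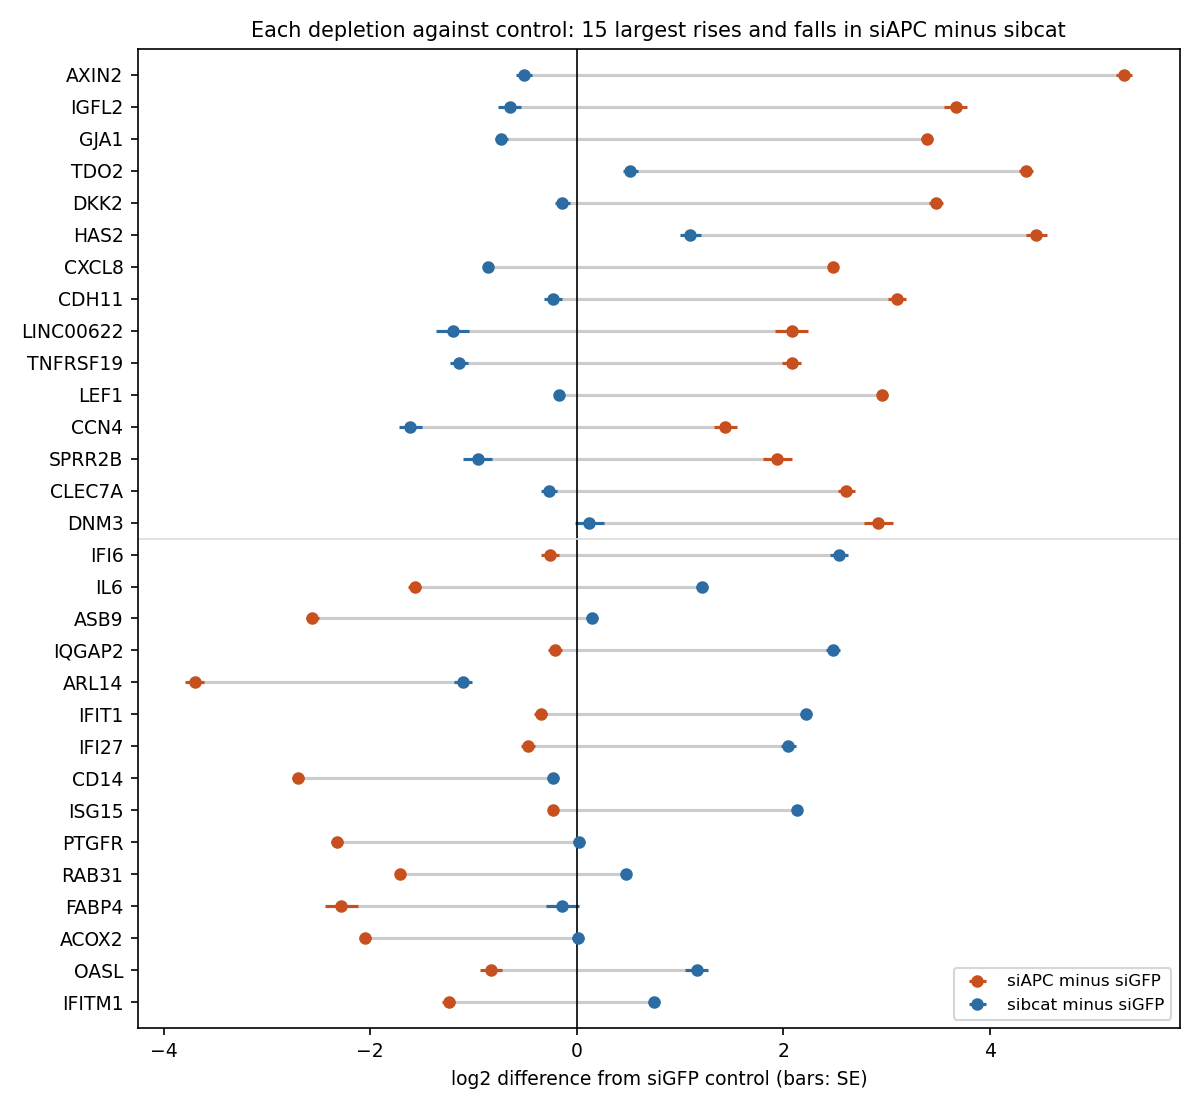
Log2 difference from siGFP (horizontal axis) of siAPC and of sibcat cells for the 15 largest rises (upper block) and 15 largest falls (lower block), with SE as bars. AXIN2 runs from 5.30 in siAPC cells to -0.51 in sibcat cells, and the interferon-stimulated IFI6 from -0.26 to 2.54.

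Feedback inhibitors of the Wnt pathway were among the largest rises, but as a list they did not move as a block. Of 20 measured, 8 were higher (40.0%, beside 16.3% of all genes), 1 was lower (5.0%, beside 17.5%) and 11 did not pass. The median was 0.13 beside 0.0 for all genes. DKK2, a secreted ligand of the LRP coreceptors, had 6.10, 6.33, 6.14 and 5.96 in siAPC cells, against 2.54, 2.58, 2.48 and 2.47 in sibcat cells (3.62 ± 0.07). TNFRSF19 was 3.23 ± 0.09 higher. ZNRF3 and RNF43 are membrane ubiquitin ligases that remove Frizzled receptors. ZNRF3 had 9.27, 9.16, 9.27 and 9.17 in siAPC cells, against 8.06, 8.10, 8.18 and 8.05 in sibcat cells (1.12 ± 0.07), and RNF43 was 1.36 ± 0.10 higher. APCDD1, a membrane inhibitor of Wnt signalling, was 1.72 ± 0.15 higher and NKD1, which binds Dishevelled, 0.73 ± 0.12 higher; RNF43, APCDD1 and NKD1 were picked after their values were seen. The single fall was that of SFRP1, a secreted Wnt-binding protein, at -0.76 ± 0.04, with 9.62 ± 0.06 in siAPC cells and 10.38 ± 0.02 in sibcat cells (SD, n = 4 each). The median was 0.64 when only genes with a mean signal of at least 6 were kept.

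Other targets and partners of beta-catenin and TCF gave 16 higher (43.2%), 5 lower (13.5%) and 16 without a call among 37 measured. Their median was 0.18. LEF1, a DNA-binding partner of beta-catenin and itself a target, had 9.46, 9.50, 9.41 and 9.49 in siAPC cells, against 6.32, 6.24, 6.45 and 6.29 in sibcat cells (3.14 ± 0.05, adjusted p = 2.9e-19). CCN4 had 6.52, 6.47, 6.49 and 6.35 in siAPC cells, against 3.21, 3.32, 3.68 and 3.41 in sibcat cells (3.05 ± 0.11). Both were among the 15 largest rises, which were taken without overlap of the groups. MSX2, a homeobox factor, was 2.16 ± 0.06 higher, BMP4, a secreted growth factor, 2.25 ± 0.07 higher and ENC1, an actin-binding adaptor, 1.18 ± 0.04 higher. LGR6, a receptor for R-spondins (2.05 ± 0.20), the zinc finger factor SP5 (1.09 ± 0.16) and the G1 cyclin CCND1 (0.99 ± 0.05), picked after their values were seen, were higher as well. Members also went the other way: MYC, a growth-promoting transcription factor and a textbook target, had 11.22 ± 0.01 in siAPC cells and 11.65 ± 0.06 in sibcat cells (SD, n = 4 each; -0.43 ± 0.04, adjusted p = 1.3e-08). SP8, a zinc finger factor, was lower by 1.31 (-1.31 ± 0.08). MYC and SP8 were also picked after their values were seen, and the other 3 falls, CD44, EPHB3 and SOX9, were smaller at -0.31, -0.35 and -0.14.

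The core of the TCF/LEF recognition sequence, CTTTGAT or ATCAAAG on the other strand, was sought in RefSeq promoters (GRCh38.p14) of 300 bases, from 250 bases before to 50 after each start. Of the 20 feedback genes 9 had a promoter in the table and 0 of 9 held the core, beside 2.64% of all 27305 promoters. Only 3 of these 9 promoters belonged to the 8 feedback genes called higher in siAPC cells, so most of those were not searched. A core shortened to TTTGAT gave 0 of 9 as well, beside 9.64% of all promoters, which says only that these letters are not in these windows.

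In the destruction complex and cadherin junction list 11 of 21 genes were higher (52.4%), 3 were lower (14.3%) and 7 did not pass. The median was 0.20. Besides CTNNB1, CDH11 and APC itself, VCL, which links catenins to actin, was 0.57 ± 0.04 higher and CSNK1A1, the kinase that primes beta-catenin for degradation, 0.53 ± 0.04 higher. CSNK1A1 lay 0.06 from siGFP in siAPC cells and at -0.47 in sibcat cells. Wnt ligands and receptors gave 4 higher (15.4%), 6 lower (23.1%) and 16 without a call among 26, with a median of -0.06. Of all genes 16.3% were higher and 17.5% lower. The Frizzled receptors split: FZD7 was 0.70 ± 0.04 higher and FZD6 0.18 higher, while FZD1 (-0.94 ± 0.04), FZD3 (-0.61 ± 0.06), FZD5 (-0.77 ± 0.08, picked after its value was seen) and FZD10 (-1.65 ± 0.13) were lower. FZD10 was dim, with 4.15, 3.77, 4.58 and 3.92 in siAPC cells, against 5.82, 5.80, 5.85 and 5.54 in sibcat cells. WLS, which carries Wnt ligands to the surface, was 0.43 ± 0.04 higher.

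Targets of YAP/TAZ and TEAD differed by little between the groups although both groups stood far from siGFP. Of 22 measured, 15 were higher (68.2%), 3 lower (13.6%) and 4 did not pass. The median was 0.30, and 0 of the 22 differed by at least 2-fold. The list's median stood at 1.18 above siGFP in siAPC cells and 1.03 in sibcat cells, in comparisons that share the siGFP arrays. ASAP1, a regulator of ARF GTPases, had 10.91, 10.91, 10.99 and 10.92 in siAPC cells, against 10.27, 10.28, 10.26 and 10.33 in sibcat cells (0.65 ± 0.04), and GADD45A, a stress gene, was 0.68 ± 0.04 higher. CCN1 and CCN2, matricellular proteins, and ANKRD1, a nuclear ankyrin protein, are textbook reporters of TEAD activity and were picked after their values were seen. CCN1 had 12.07 ± 0.10 in siAPC cells, 11.65 ± 0.10 in sibcat cells (SD, n = 4 each) and 8.71 in siGFP cells, so the gap between the depletions, 0.42 ± 0.06, was small beside the distance of either from control. ANKRD1 had 8.73 ± 0.06 in siAPC cells, 8.18 ± 0.12 in sibcat cells and 3.08 in siGFP cells, and CCN2 differed by 0.47 ± 0.17 (adjusted p = 0.0378). The call of CCN2 was lost when any 1 of the 8 arrays was left out, with differences of 0.45 to 0.49. Its siAPC arrays lay at 10.99 to 11.08 and its sibcat arrays at 10.51 to 10.62, without overlap. The SE of 0.17 was pooled over all groups. CCN2 was dim and more scattered in siAPC/siTAZ cells (4.27, SD 0.39) and sibcat/siTAZ cells (3.21, SD 0.41), which are outside this comparison.

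Interferon-stimulated genes were lower in siAPC cells almost throughout. Of 43 measured, 38 were lower, 0 were higher and 5 did not pass, beside 17.5% lower among all genes, and 17 of the 38 were lower by at least 2-fold. The list's median difference was -0.77. IFIT1, which binds foreign RNA, had 6.95, 7.16, 7.06 and 7.05 in siAPC cells, against 9.63, 9.63, 9.72 and 9.54 in sibcat cells (-2.58 ± 0.06). ISG15, a ubiquitin-like modifier, had 7.99, 7.94, 7.88 and 7.99 in siAPC cells, against 10.33, 10.24, 10.39 and 10.29 in sibcat cells (-2.36 ± 0.05, adjusted p = 1.8e-17). Both sets of arrays were far apart, with the siAPC values slightly under the siGFP means of 7.41 and 8.18. IFI27 was lower by 2.52 (-2.52 ± 0.07), OASL, a protein related to the oligoadenylate synthetases, differed by -1.99 ± 0.11, and IFITM1, a membrane protein that blocks viral entry, by -1.98 ± 0.06. Array by array, the list's median level against siGFP lay between -0.27 and -0.23 in siAPC cells and between 0.45 and 0.56 in sibcat cells. The difference therefore combined a small fall with a larger rise, and 33 of 43 members were called above siGFP in sibcat cells (background 21.4%) and 25 of 43 below it in siAPC cells (background 18.7%).

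The interferon response runs through an element whose core is a pair of GAAA half-sites with any 2 bases between them, which the factor ISGF3 binds. On either strand this core was found in 23 of the 35 list promoters in the RefSeq table (65.7%), beside 3.65% of all promoters, and in 20 of the 31 that were lower in siAPC cells. The list was made of interferon-stimulated genes and nearly all of these promoters belonged to lower genes, so this count cannot tie the element to the falls. The promoters of IFI6 and IFIT1 are shown because these are the members with the largest falls whose window holds it. Capitals mark each match, at 156, 115 and 93 bases before the start of IFI6 (GRCh38.p14, chr1:27672143-27672442, minus strand) and, as its reverse complement, at 116 and 103 bases before the start of IFIT1 (chr10:89392373-89392672, plus strand). No match overlaps another, and a match is a description of letters and not a shown site.
IFI6: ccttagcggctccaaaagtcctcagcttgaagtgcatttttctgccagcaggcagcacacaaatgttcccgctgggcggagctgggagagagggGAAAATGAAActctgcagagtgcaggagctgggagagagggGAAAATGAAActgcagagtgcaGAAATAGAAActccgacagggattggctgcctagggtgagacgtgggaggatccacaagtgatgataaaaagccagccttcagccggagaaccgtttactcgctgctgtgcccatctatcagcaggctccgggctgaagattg
IFIT1: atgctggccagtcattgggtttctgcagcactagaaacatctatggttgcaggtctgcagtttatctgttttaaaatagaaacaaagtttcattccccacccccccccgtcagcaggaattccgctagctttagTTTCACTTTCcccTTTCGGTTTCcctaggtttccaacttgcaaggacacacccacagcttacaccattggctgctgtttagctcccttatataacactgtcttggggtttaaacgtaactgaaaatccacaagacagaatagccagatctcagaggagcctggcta

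Mitosis genes were lower in siAPC cells in 37 of 39 cases, beside 17.5% of all genes, with 0 higher and 2 without a call, BUB3 and CENPI. The median was -0.62 and 0 of the falls reached 2-fold. KIF20A, a kinesin of cytokinesis, had 9.86, 9.82, 9.81 and 9.81 in siAPC cells, against 10.76, 10.71, 10.73 and 10.71 in sibcat cells (-0.90 ± 0.04, adjusted p = 3.4e-13), with 10.15 as the siGFP mean. CENPE, a kinetochore motor, had 8.19, 8.10, 8.14 and 8.21 in siAPC cells, against 9.11, 9.09, 9.06 and 8.99 in sibcat cells (-0.90 ± 0.04). The groups were separate by far more than their spread in both genes. DLGAP5, a spindle protein, was lower by 0.82 (-0.82 ± 0.04), NUSAP1, which bundles microtubules, by 0.80 (-0.80 ± 0.04), and HMMR, a spindle-associated hyaluronan receptor, by 0.75 (-0.75 ± 0.04). PLK1, a mitotic kinase picked after its values were seen, was lower by 0.50 (-0.50 ± 0.06). Each siAPC array had a list median between -0.11 and -0.05 against siGFP and each sibcat array one between 0.49 and 0.62, and 35 of 39 members were called above siGFP in sibcat cells (background 21.4%).

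S phase and DNA replication genes went the same way, with 27 of 33 lower (17.5% of all genes), 1 higher (16.3%) and 5 without a call, and a median of -0.48. MCM6, a subunit of the replicative helicase, had 9.48, 9.49, 9.36 and 9.36 in siAPC cells, against 10.44, 10.31, 10.35 and 10.46 in sibcat cells (-0.97 ± 0.04), and its partner MCM4 was lower by 0.88 (-0.88 ± 0.04). UHRF1, which guides maintenance of DNA methylation, had 9.17 ± 0.04 in siAPC cells and 10.01 ± 0.04 in sibcat cells (SD, n = 4 each; -0.84 ± 0.03). RRM2, a subunit of ribonucleotide reductase, was lower by 0.80 (-0.80 ± 0.04) and GMNN, an inhibitor of replication licensing, by 0.68 (-0.68 ± 0.03). PCNA, the sliding clamp, fell by 0.56 (-0.56 ± 0.05), and the one rise was SLBP, which binds histone mRNA, at 0.14 ± 0.03. PCNA and SLBP were picked after their values were seen. MCM6 and MCM4 were close to siGFP in sibcat cells, at 0.15 each, and below it in siAPC cells, at -0.82 and -0.73, whereas RRM2 was close to siGFP in siAPC cells, at 0.06, and above it in sibcat cells, at 0.86. In bulk samples fewer cells in a phase and less RNA per cell cannot be told apart.

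Many mitotic promoters hold the CHR element TTTGAA, through which the DREAM and MuvB complexes act. On either strand it was present in 22 of 33 mitosis promoters (66.7%), beside 15.4% of all promoters. Of the 33 promoters 32 belonged to genes that were lower, among them all 22, so this count cannot tie the element to the falls. SPC25 and KIF14, a kinetochore protein and a mitotic kinesin, are shown as the members with the largest falls whose window holds it. SPC25 was lower by 0.96 (-0.96 ± 0.07) and KIF14 by 0.85 (-0.85 ± 0.06). The capitals lie at 247 bases before the start and across the start in SPC25 (GRCh38.p14, chr2:168890381-168890680, minus strand), and just after the start, as the reverse complement, in KIF14 (chr1:200620702-200621001, minus strand).
SPC25: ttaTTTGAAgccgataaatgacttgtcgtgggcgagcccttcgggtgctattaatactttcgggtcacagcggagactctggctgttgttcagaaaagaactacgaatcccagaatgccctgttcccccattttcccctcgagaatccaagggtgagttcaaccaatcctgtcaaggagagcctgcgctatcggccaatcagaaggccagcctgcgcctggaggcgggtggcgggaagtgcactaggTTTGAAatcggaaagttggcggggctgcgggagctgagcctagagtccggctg
KIF14: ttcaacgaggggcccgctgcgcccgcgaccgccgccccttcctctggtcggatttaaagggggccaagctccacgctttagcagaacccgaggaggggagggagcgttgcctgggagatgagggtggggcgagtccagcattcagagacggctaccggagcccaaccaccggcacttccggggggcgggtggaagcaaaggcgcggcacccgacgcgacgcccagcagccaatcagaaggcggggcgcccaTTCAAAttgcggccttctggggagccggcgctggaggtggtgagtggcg

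Inhibitors of the cell cycle and p53 targets were mixed, at 9 higher (45.0%), 4 lower (20.0%) and 7 without a call among 20. Their median was 0.17. FAS, a death receptor, had 10.90, 10.86, 10.88 and 10.85 in siAPC cells, against 10.02, 9.93, 10.03 and 9.98 in sibcat cells (0.88 ± 0.03). CDKN1B, the inhibitor p27, went the other way with 9.31 ± 0.04 in siAPC cells and 10.08 ± 0.10 in sibcat cells (SD, n = 4 each; -0.77 ± 0.05). CDKN1A, the inhibitor p21, was 0.43 ± 0.05 higher and was picked after its values were seen. TNFRSF10B, a receptor for the death ligand TRAIL, was 0.43 ± 0.04 higher and TP53INP1 0.45 ± 0.05 higher, each by its brightest probe set. The other 3 probe sets of TNFRSF10B and 2 of TP53INP1 were not called. TP53INP1 lay below siGFP in both groups, at -0.73 in siAPC cells and -1.19 in sibcat cells.

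**Figure D3:**
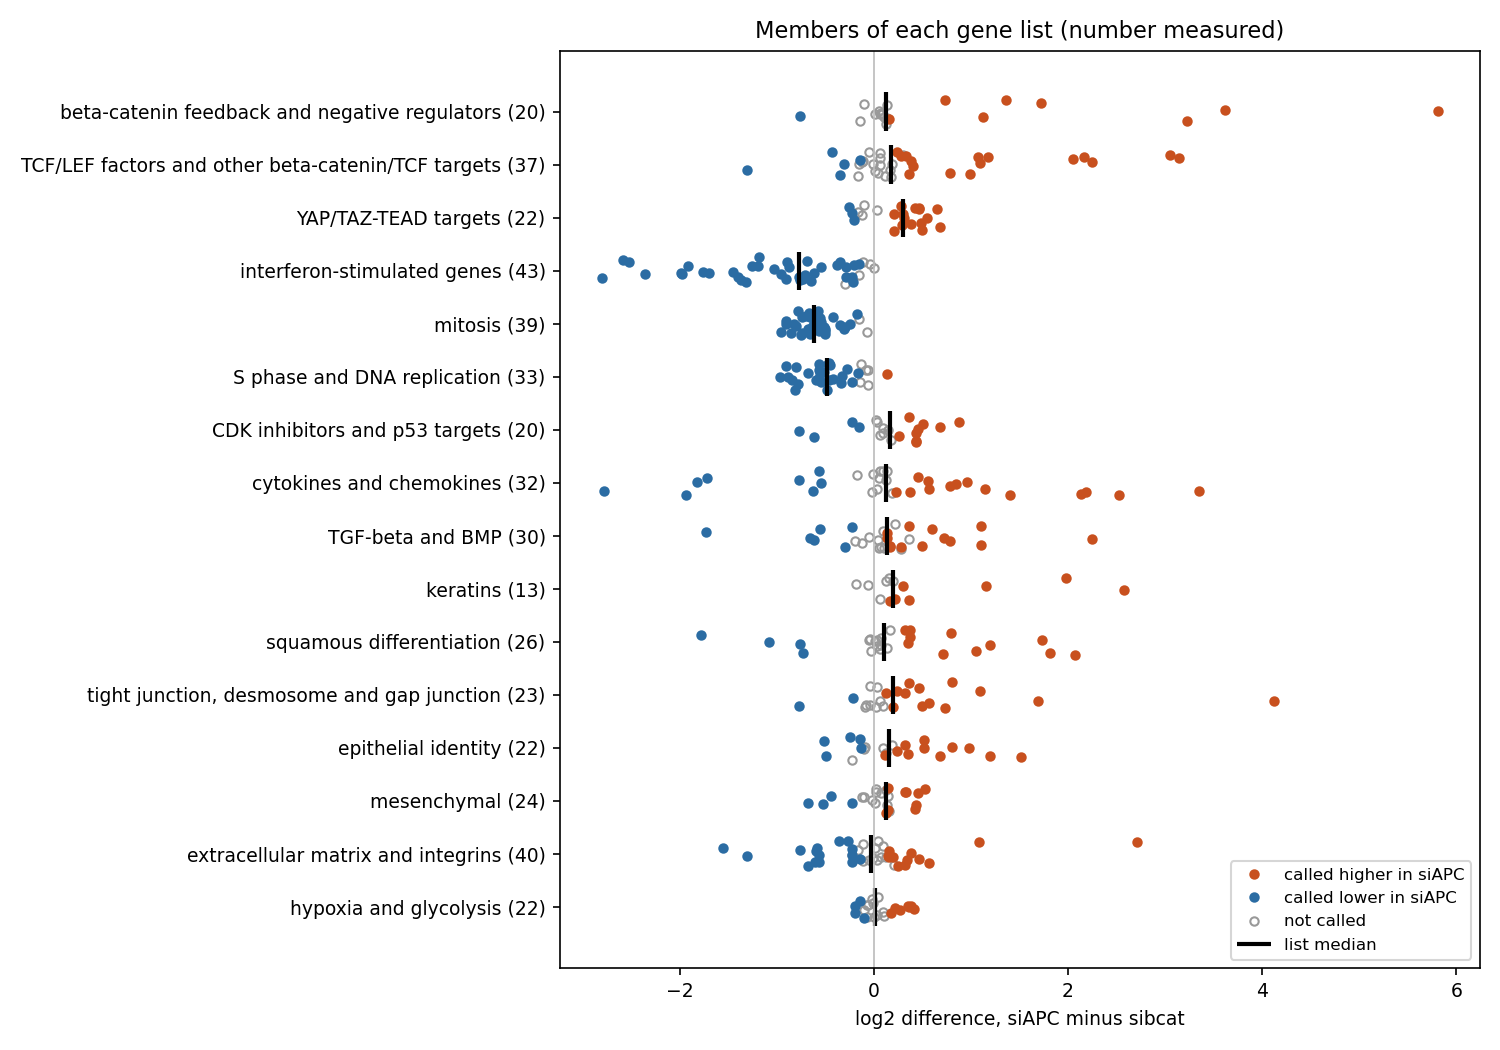
Log2 difference between siAPC and sibcat cells (horizontal axis) of every measured member of 16 gene lists, 1 point per gene. Filled points passed the test, orange if higher and blue if lower in siAPC cells, open points did not, and the black bar is the list median. Interferon-stimulated, mitosis and S phase genes lie almost wholly left of 0, with medians of -0.77, -0.62 and -0.48.

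Each called keratin was higher in siAPC cells than in sibcat cells, and the most different of them lay below siGFP in both. Of 13 keratins 7 were higher (53.8%), 0 lower and 6 without a call, with a median of 0.20. The list's median level against siGFP was -0.33 in sibcat replicate D and -0.77 to -0.71 in the other sibcat arrays, and the mammary line markers stood apart there too, at -0.36 beside -0.80 to -0.73. Without that array 8 keratins were higher and the median was 0.26. KRT13, a keratin of stratified epithelium, had 6.55, 6.31, 6.59 and 6.57 in siAPC cells, against 3.66, 4.04, 3.83 and 4.19 in sibcat cells (2.58 ± 0.17), with a siGFP mean of 8.81. KRT23 was 1.98 ± 0.11 higher, with means of 6.23 in siAPC cells, 4.25 in sibcat cells and 9.01 in siGFP cells. Both genes were lowered from control in each depletion, and further in sibcat cells. KRT16 had 9.33, 9.33, 9.27 and 9.33 in siAPC cells, against 8.05, 8.01, 8.18 and 8.39 in sibcat cells (1.16 ± 0.07). KRT14, a basal keratin, had 9.04, 9.08, 8.99 and 9.03 in siAPC cells, against 8.55, 8.54, 8.52 and 9.09 in sibcat cells (0.36 ± 0.09, adjusted p = 0.00361). Its groups overlapped through sibcat replicate D, and without that array the difference was 0.50. KRT5 overlapped in the same way, with 11.94 in sibcat replicate D beside 11.43 to 11.52 in the others, and its difference was 0.30 with that array and 0.41 without it. The call of KRT5 was lost when only the 8 siAPC and sibcat arrays were fitted (0.29).

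Squamous differentiation gave 11 higher (42.3%), 4 lower (15.4%) and 11 without a call among 26, with a median of 0.10. SPRR1B, a precursor of the cornified envelope, had 8.35, 8.44, 8.28 and 8.42 in siAPC cells, against 6.35, 6.35, 6.13 and 6.38 in sibcat cells (2.07 ± 0.06), SPRR3 was 1.81 ± 0.12 higher, and SERPINB13, a protease inhibitor, 1.73 ± 0.06 higher. KLK7, a skin kallikrein, was 0.79 ± 0.05 higher. Against siGFP, siAPC cells stood at -0.37 for SPRR1B, -0.64 for SERPINB13 and -0.84 for KLK7, but at 0.53 for SPRR3. In siAPC cells 2 of the 26 were called above siGFP (background 21.3%) and 16 below (18.7%). In sibcat cells 1 was above (21.4%) and 19 below (15.7%). S100A8, a calcium-binding alarmin, ran against them with 7.43, 7.38, 7.38 and 7.45 in siAPC cells, against 9.23, 9.08, 9.22 and 9.24 in sibcat cells (-1.78 ± 0.05). The other 3 falls were S100A9 (-0.73), SERPINB3 (-1.08) and SERPINB4 (-0.76), of which the SERPINB pair are near-identical copies.

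Junction genes were mostly higher in siAPC than in sibcat cells: 13 of 23 were higher (56.5%), 2 lower (8.7%, DSC3 and CLDN8) and 8 without a call. Their median was 0.20. In siAPC cells 6 of the 23 were called above siGFP (background 21.3%) and 10 below (18.7%). In sibcat cells 1 was above (21.4%) and 19 below (15.7%). After GJA1 came GJB2, another connexin, with 11.03 ± 0.06 in siAPC cells and 9.34 ± 0.10 in sibcat cells (SD, n = 4 each; 1.69 ± 0.05). The desmosomal cadherins DSG3 and DSC2 were 1.09 ± 0.05 and 0.73 ± 0.04 higher, and the tight junction protein CGN 0.80 ± 0.07 higher. In the epithelial identity list 11 of 22 were higher, 5 lower and 6 without a call. MARVELD2, a protein of tricellular tight junctions, had 9.23, 9.20, 9.19 and 9.22 in siAPC cells, against 7.66, 7.69, 7.75 and 7.66 in sibcat cells (1.52 ± 0.04, adjusted p = 8.7e-17). Its siAPC level lay 0.02 from siGFP, so the gap lay with sibcat cells at -1.50. RAB25, an epithelial trafficking GTPase, was 1.2 ± 0.07 higher, the grainyhead factors GRHL3 and GRHL1 0.98 ± 0.07 and 0.68 ± 0.06 higher, and E-cadherin (CDH1) 0.52 ± 0.04 higher. Each of these was below siGFP in both groups, RAB25 at -0.73 in siAPC cells and -1.93 in sibcat cells and CDH1 at -0.24 and -0.76. GRHL3 stood at -0.57 and -1.55 and GRHL1 at -0.61 and -1.28. Of the 22, 0 were called above siGFP in either group, 18 were below it in siAPC cells (background 18.7%) and 21 in sibcat cells (background 15.7%). CDS1, an enzyme of phospholipid synthesis, was lower by 0.51 (-0.51 ± 0.04).

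**Figure D4:**
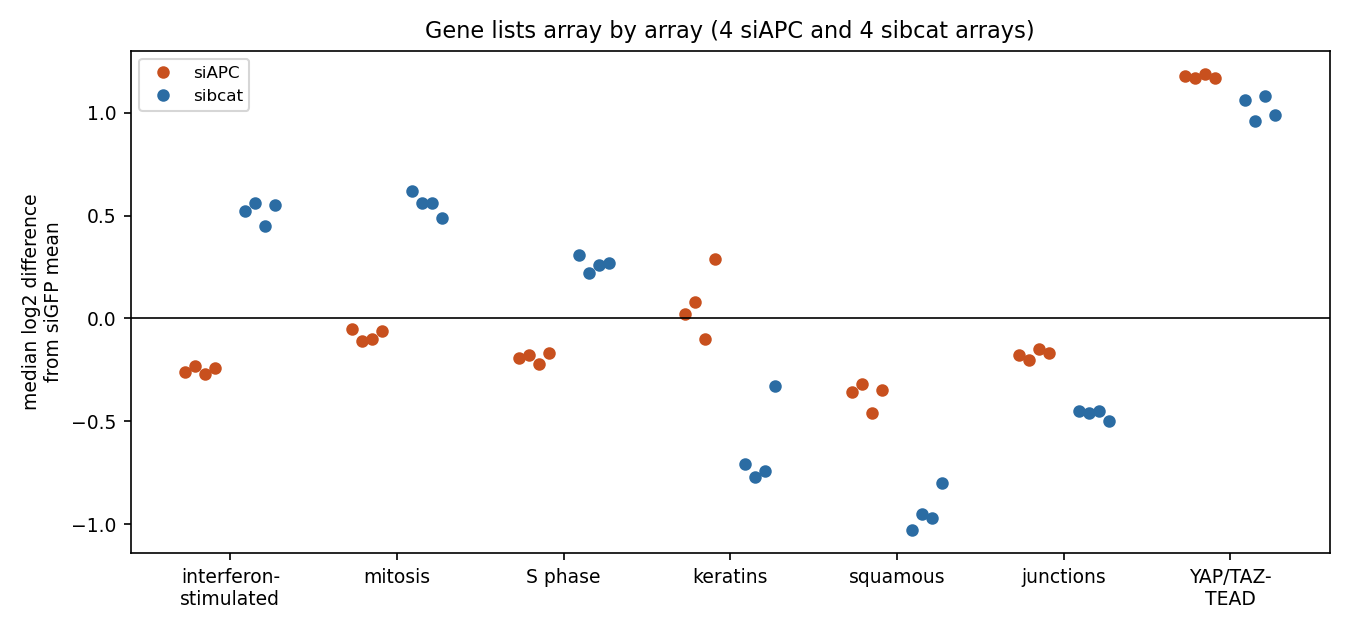
Median over each gene list of the log2 difference from the siGFP mean (vertical axis) in each of the 4 siAPC and 4 sibcat arrays. Interferon-stimulated genes lie at -0.27 to -0.23 in siAPC cells and 0.45 to 0.56 in sibcat cells, mitosis genes at -0.11 to -0.05 and 0.49 to 0.62, and keratins spread from -0.10 to 0.29 and from -0.77 to -0.33.

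Cytokines and chemokines separated the groups in both directions, with 14 higher, 8 lower and 10 without a call among 32 and a median of 0.13. Beside CXCL8, the related CXCL1 had 11.33, 11.49, 11.42 and 11.48 in siAPC cells, against 9.28, 9.19, 9.21 and 9.31 in sibcat cells (2.18 ± 0.05). IL1RN, the antagonist of interleukin-1 receptors, had 8.80, 8.79, 8.78 and 8.82 in siAPC cells, against 6.20, 6.35, 6.26 and 6.26 in sibcat cells (2.53 ± 0.05), and PTGS2, the inducible cyclooxygenase, was 2.13 ± 0.08 higher. IL1RN and PTGS2 were near siGFP in siAPC cells, at 0.15 and -0.12, and below it in sibcat cells, at -2.38 and -2.25. On the lower side, next to IL6, stood the death ligand TNFSF10 (-1.94 ± 0.12), the interferon-induced chemokine CXCL11 (-1.82 ± 0.14) and the macrophage growth factor CSF1 (-1.72 ± 0.08), picked after their values were seen. TNFSF10 and CXCL11 were below siGFP in both groups, at -2.78 and -2.31 in siAPC cells and -0.84 and -0.50 in sibcat cells.

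TGF-beta and BMP genes gave 13 higher (43.3%), 6 lower (20.0%) and 11 without a call among 30, with a median of 0.14. BMP4 had 10.29, 10.30, 10.30 and 10.25 in siAPC cells, against 8.09, 7.91, 8.11 and 8.03 in sibcat cells (2.25 ± 0.07), with a siGFP mean of 5.65. BMP2, picked after its values were seen, was 1.10 ± 0.06 higher, BAMBI, a decoy receptor, 1.10 ± 0.05 higher, and BMPR2, a BMP receptor, 0.72 ± 0.04 higher. TGFBR1 had 8.49, 8.47, 8.48 and 8.54 in siAPC cells, against 10.25, 10.27, 10.15 and 10.23 in sibcat cells (-1.73 ± 0.04, adjusted p = 3e-16). LTBP1, which stores latent TGF-beta in the matrix, was lower by 0.66 (-0.66 ± 0.04).

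Matrix and integrin genes had no common direction, at 12 higher, 15 lower and 13 without a call among 40. The collagen-binding integrins were the largest rises: ITGA1 had 7.57, 7.74, 7.50 and 7.67 in siAPC cells, against 4.98, 5.14, 4.53 and 5.01 in sibcat cells (2.71 ± 0.11), and ITGA2 was 1.08 ± 0.05 higher. TIMP3, an inhibitor of metalloproteinases, had 7.64 ± 0.08 in siAPC cells and 8.94 ± 0.03 in sibcat cells (SD, n = 4 each; -1.31 ± 0.05). MMP13, a collagenase, was dim, with means of 3.51 in siAPC cells and 5.07 in sibcat cells, and lower by 1.55 (-1.55 ± 0.10), and COL12A1, a fibril-associated collagen, by 0.56 (-0.56 ± 0.04). Mesenchymal genes gave 9 higher (37.5%), 4 lower (16.7%) and 11 without a call among 24, with 0 at 2-fold. The repressor ZEB1 was 0.45 ± 0.04 higher and N-cadherin (CDH2) 0.32 ± 0.04 higher, whereas TWIST2 (-0.68 ± 0.06), S100A4 (-0.44 ± 0.03) and FOXC2 (-0.52 ± 0.05) were lower.

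EGF family and ERK feedback genes gave 12 higher (46.2%), 4 lower (15.4%) and 10 without a call among 26. EGR1, an immediate early factor, had 9.79, 9.77, 9.70 and 9.76 in siAPC cells, against 8.35, 8.42, 8.29 and 8.33 in sibcat cells (1.41 ± 0.05), and both groups lay under the siGFP mean of 10.51. The ligands split, with NRG1 1.2 ± 0.11 higher and EREG lower by 1.34 (-1.34 ± 0.12). IER3 was 0.72 ± 0.04 higher, and PHLDA1 was 0.77 ± 0.04 higher by its brightest probe set but -0.28 by another.

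Of 26 amino acid and unfolded protein stress genes 13 were higher and 5 lower, led by VLDLR (0.83 ± 0.06), SLC7A11, a cystine transporter (0.53 ± 0.05), and the factor CEBPB (-0.64 ± 0.03). Hypoxia and glycolysis genes gave 7 higher (31.8%), 4 lower (18.2%) and 11 without a call among 22. Their median was 0.01, with ADM at 0.36 ± 0.04. In sterol and fatty acid synthesis 5 of 17 were higher (29.4%) and 0 lower. These were LSS (0.56 ± 0.05), FDPS (0.27 ± 0.03), SCD (0.15 ± 0.04), ACACA (0.14 ± 0.05) and SQLE (0.11 ± 0.04). ACACA and SQLE lost their calls when siAPC replicate D (0.12 and 0.10) or sibcat replicate B (0.11 and 0.10) was left out, and SQLE also without sibcat replicate D (0.10). Luminal and secretory genes gave 8 higher (28.6%) and 2 lower (7.14%) of 28. CEACAM6 was at 6.74 ± 0.06 in siAPC cells and 4.99 ± 0.29 in sibcat cells (SD, n = 4 each), both far under the siGFP mean of 9.51. Basal and myoepithelial genes gave 8 higher (57.1%) and 2 lower (14.3%), ITGA6 and LAMB3, of 14. Among markers of other cell types the calls were DCN (-0.53), COL1A1 (-0.22), COL3A1 (0.53), MFAP5 (0.36), PECAM1 (-1.41) and CD14, and the part of other cells in any result was not tested.

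The same contrast was also made in cells that received TAZ siRNA, siAPC/siTAZ minus sibcat/siTAZ, on 8 arrays that the comparison above did not use. There 8903 genes passed the test (45.1%), 4116 higher (20.8%) and 4787 lower (24.2%). The difference in CTNNB1 itself was wider there, 3.06 against 1.38 without TAZ siRNA, and that in APC was -1.51 against -0.84. TAZ depletion was itself unequal between the arms, since WWTR1 averaged 7.98 in siAPC/siTAZ cells and 8.41 in sibcat/siTAZ cells (-0.43, limma adjusted p = 1.1e-06), against a difference of 0.02 without TAZ siRNA. The part of these 3 differences in what follows was not tested. Of the genes higher without TAZ siRNA, 2453 were also higher with it, 76.2% of the first list and 59.6% of the second. Of those lower, 2740 were shared, 79.1% and 57.2%, while 167 and 176 genes were called in opposite directions. At 2-fold, which 551 genes (2.79%) passed upward and 596 (3.02%) downward with TAZ siRNA, 171 rises (83.8% and 31.0%) and 77 falls (60.6% and 12.9%) were shared. All 15 of the largest rises were called higher with TAZ siRNA too, and 14 of the 15 largest falls were called lower, the exception being ARL14.

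Several separations were wider with TAZ siRNA. The interferon-stimulated list gave 39 of 43 lower with a median of -1.36. Mitosis gave 39 of 39 lower with -1.60 and S phase 31 of 33 lower with -1.12, beside 24.2% of all genes. The difference of the contrasts, without minus with TAZ siRNA, was itself called for 5476 genes (27.7%), 3071 above 0 (15.5%) and 2405 below (12.2%). It reached 1.05 for KIF20A (adjusted p = 1.9e-11), 1.76 for IFIT1 (adjusted p = 1.7e-11) and 1.51 for MCM6 (adjusted p = 1.1e-12), so these genes separated the groups more with TAZ siRNA. DKK2 differed by 6.36 with TAZ siRNA and 3.62 without it (difference -2.75), LEF1 by 4.57 and 3.14 (difference -1.43) and BMP4 by 5.48 and 2.25 (difference -3.23). AXIN2 differed by 6.34 and 5.81, a difference of -0.53 (adjusted p = 0.00087).

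The 5 widest gaps between the contrasts in each direction were taken by rule, with BMP4 and DKK2 among them. TIMP2, an inhibitor of metalloproteinases, differed by -3.46 with TAZ siRNA and -0.23 without it, so the difference of the contrasts was 3.23 (limma adjusted p = 7e-18). PRR16 differed by -3.28 and 0.11 (difference 3.38), SDC2, a heparan sulfate proteoglycan, by -2.98 and -0.26 (2.73), SRGN, an intracellular proteoglycan, by -2.29 and 0.41 (2.71) and DEK, a chromatin protein, by -2.68 and -0.32 (2.36). In the other direction ARL14 differed by 0.48 with TAZ siRNA and -2.60 without it (-3.08), OLR1, a scavenger receptor, by 4.28 and 1.24 (-3.04), and the alarmin IL33 by 2.36 and -0.54 (-2.90). MYC was lower in siAPC cells without TAZ siRNA and differed by 0.10 with it (adjusted p = 0.0332).

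**Figure D5:**
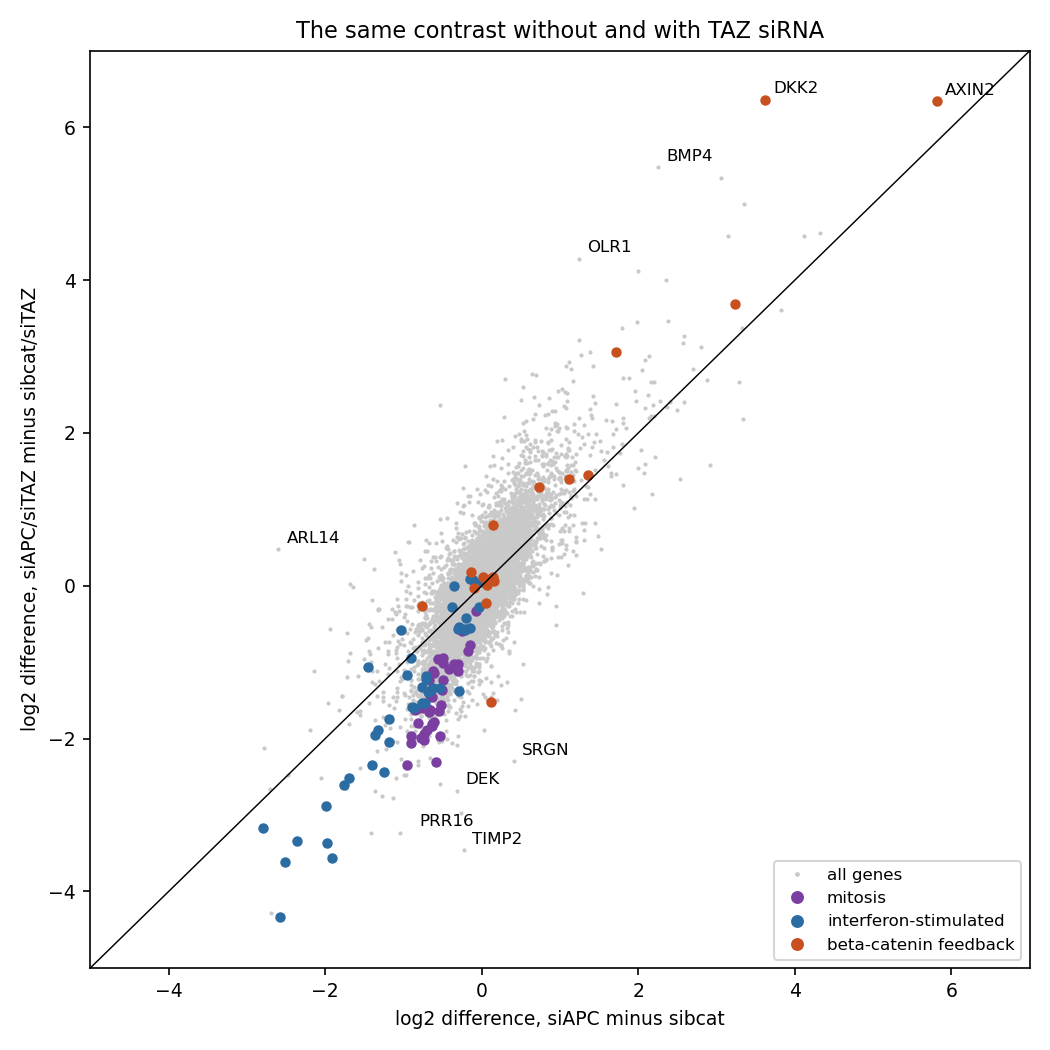
Log2 difference without TAZ siRNA (siAPC minus sibcat, horizontal axis) against that with TAZ siRNA (siAPC/siTAZ minus sibcat/siTAZ, vertical axis) for 19752 genes, from separate arrays, with the line of equal values. AXIN2 lies near the line at 5.81 and 6.34, mitosis genes lie below it, and TIMP2 at -0.23 and -3.46 and ARL14 at -2.60 and 0.48 lie far from it.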

How the data were processed

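The 20 MII samples each had total RNA hybridised to 1 Affymetrix HG-U133 Plus 2.0 array. The authors deposited log2 signals, and the submitters' processing notes name RMA, a method that corrects background, equalises array distributions and summarises probes, with no version. The number of arrays limits the precision.

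Of 54675 probe sets, 41097 carried 1 symbol in the platform annotation, and symbols were updated to RefSeq names (41085 of the 41091 used). Each of 19752 genes was represented by its brightest probe set (mean over 20 arrays), with no filter. Groups came from the sample titles. A group-means model over all 20 arrays was fitted with limma 3.58.1 in R 4.3.3 (15 residual degrees of freedom, two-sided, Benjamini-Hochberg over all genes), and genes were called at an adjusted p under 0.05. On simulated data over 19752 genes it recovered 38%, 92%, 100% and 100% of changes of 0.25, 0.5, 1 and 2, with 14 false among 179 calls. Only 50 genes per size were changed there, with independent normal noise, whereas 33.8% of genes were called in the data. These rates therefore need not hold for the data.

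No pairing by replicate letter was found: same-letter residuals of siAPC and sibcat arrays correlated at 0.015, -0.083, -0.08 and 0.08.

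The members and lists were chosen with earlier results of these data known. The 28 lists overlap (642 of 698 entries measured). Named genes were the siRNA targets, the 15 largest rises and falls without overlap of arrays, up to 5 members per list by adjusted p, the 6 widest splits around siGFP and the 5 largest differences of contrasts per direction, 148 in all, plus 20 picked after their values were seen. Promoters with a motif were taken from RefSeq (GRCh38.p14), where 115 of the 168 named genes matched. Alternatives were other probe set choices, signal minimums of 5 and 6, other scalings and variance models, a 1.2-fold threshold, a replicate block and leaving out each of 8 arrays.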

Additional observations from a re-analysis of the deposited data

Results flagged for a closer look

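Among the siAPC and sibcat arrays of the 168 named genes, 336 groups of 4 were examined for 1 array far from the other 3, and 26 had one (7.74%). Chance flags about 1 in 20 groups. The siAPC replicate C held 9 of the 26, sibcat replicates C and D 4 each, and the other arrays 1 or 2 each. The causes were not tested.

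In siAPC replicate C, 9 genes stood apart. ENC1 was at 9.83 beside 9.89 in the others, WLS at 8.71 beside 8.77 to 8.78, and ASAP1 at 10.99 beside 10.91 to 10.92. RRM2 was at 10.73 beside 10.78 to 10.79, GRHL3 at 6.87 beside 6.79 to 6.80, and KRT16 at 9.27 beside 9.33. KLK7 was at 11.46 beside 11.58 to 11.60, GJB2 at 11.12 beside 10.98 to 11, and MFAP5 at 9.15 beside 9.41 to 9.42. In other siAPC arrays SPRR2B was at 8.15 in replicate A beside 8.62 to 8.68, KRT13 at 6.31 in B beside 6.55 to 6.59, and DDIT4 at 13.04 in B beside 13.02. AXIN2 was at 10.14 in D beside 10.08 to 10.09, and PLK1 at 5.86 in D beside 5.71 to 5.72. For MFAP5 the gap was large beside its difference from sibcat cells of 0.36.

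Among sibcat arrays the widest gaps were in replicates A and D. CEACAM6 was at 5.42 in replicate A beside 4.82 to 4.86, and KRT14 at 9.09 in D beside 8.52 to 8.55. RAB25 was at 8.04 in D beside 7.67 to 7.72, FZD10 at 5.54 in D beside 5.80 to 5.85, and CDH1 at 11.02 in D beside 11.14 to 11.16. MMP13 was at 5.17 in A beside 5.03, S100A8 at 9.08 in B beside 9.22 to 9.24, and IER3 at 11.01 in B beside 11.13 to 11.15. In replicate C, ENC1 was at 8.72 beside 8.69, SPRR1B at 6.13 beside 6.35 to 6.38, GJB2 at 9.19 beside 9.37 to 9.40, and TIMP3 at 8.90 beside 8.95 to 8.96.

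The separation of siAPC from sibcat cells differed with TAZ siRNA for 10 genes taken by rule, tested as the difference of the contrasts (without minus with TAZ siRNA) in limma. It was 3.38 for PRR16, 3.23 for TIMP2, 2.73 for SDC2, 2.71 for SRGN and 2.36 for DEK. It was -3.23 for BMP4, -3.08 for ARL14, -3.04 for OLR1, -2.90 for IL33 and -2.75 for DKK2. CTNNB1 (3.06 with TAZ siRNA against 1.38 without) and WWTR1 (-0.43 against 0.02) also differed between the contrasts, and their part was not tested.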

How the results depend on the processing

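Of the 168 named genes, 2940 of 2998 alternative values kept their direction and their side of the threshold, 54 lost the call (30 of them against the 1.2-fold threshold) and 4 changed sign. The sign changes were PHLDA1 (-0.28 with the most variable probe set), CEACAM1 (-0.01 with the mean of its probe sets) and EGFR (-0.03 with the mean and -0.20 with the most variable probe set). Some named genes had further probe sets of which none was called, among them VCL, COL1A1, APCDD1, EREG, TWIST2, SP8 and FZD5. Genes called higher and lower came to 5763 and 6158 with all probe sets kept as separate features (338 and 205 at 2-fold), and to 949 and 1064 against a 1.2-fold threshold. The falls of at least 2-fold came to 78 with the mean of probe sets. Leaving out 1 array gave 2962 to 3179 higher and 3226 to 3400 lower, and at 2-fold 195 to 203 higher and 124 to 136 lower. With the replicate block 3233 genes were higher and 3479 lower, and it changed no count by over 1.5 times. The feedback list's median was 0.64 at a signal of at least 6. The YAP/TAZ-TEAD median was 0.22 over every probe set and 0.24 with the mean, and 5 members were higher against the 1.2-fold threshold. The interferon-stimulated median was -0.72 over every probe set, -0.73 with the mean, -0.90 and -0.91 at signals of at least 5 and 6, -0.89 with the most variable probe set and -0.81 to -0.76 without 1 array. The mitosis median was -0.56 over every probe set. The cause of these shifts was not tested. Of 814 alternative counts and medians of the other lists, 64 moved by more than the spread between arrays. Dim genes limit folds: signals under the array medians of 5.07 to 5.11 are compressed by background.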
